A study of Homo sapiens with 8 samples.

Results

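The genes described here encode the subunits of the 3 nuclear RNA polymerases, chosen by symbol: protein-coding genes whose symbol begins with POLR1, POLR2 or POLR3 followed by a letter. Of the 14528 named genes of the series, 30 are described under this rule, with 45 listed transcripts. All 30 had a mean of at least 0.5 FPKM over the conditions, as did 12106 of all named genes. FPKM is the number of fragments scaled to the length of the transcript and to all mapped fragments, which puts different genes on a common scale. This scaling does not adjust for base composition, so a difference in FPKM between genes need not be one in RNA amount. The transcribed pseudogenes POLR1HASP and POLR2J4 were left out by the rule, and POLR3C and POLR3GL were not analysed here. The study compared SQ20B cells, an established line from a head and neck squamous cell carcinoma, in normoxia (4 replicates) and at 0.5% O2 for 16 h (hypoxia, 4 replicates). Both groups were grown in the same DMEM medium with serum and antibiotics, and neither carried a transgene or a deletion by its labels. Poly(A)-selected RNA was sequenced, and 1 FPKM value per transcript and condition, pooled over the replicates by the authors, was analysed. No spread between replicates and no depth of single libraries was therefore at hand, no test was made, and no difference below has a replicate check. A value is described as lower or higher in hypoxia by the direction of its FPKM only.

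RNA polymerase I (Pol I) transcribes the ribosomal RNA precursor in the nucleolus, RNA polymerase II (Pol II) transcribes mRNAs and many noncoding RNAs, and RNA polymerase III (Pol III) transcribes tRNAs, 5S ribosomal RNA and other short RNAs. Each enzyme is built around its own pair of very large catalytic subunits. Small subunits are either shared by all of them (POLR2E, POLR2F, POLR2H, POLR2K, POLR2L), shared by Pol I and Pol III (POLR1C, POLR1D), or belong to 1 enzyme, some of these with homologues in the others. Growing cells spend much of their transcription on ribosomal RNA and tRNA, and the tail of POLR2A, called the CTD, is phosphorylated during the passage of Pol II from initiation to elongation. The study examined Pol II phosphorylation and binding in hypoxia. The values described here are of subunit transcripts only, and the amounts of the subunit proteins were not analysed. Transcript and protein can differ: the paper reports SRSF3 as lower in hypoxia by mRNA and higher by protein.

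The markers of the cells and of the treatment were checked first. Of 6 squamous epithelial markers, 5 were listed, with a summed level of 525 FPKM in normoxia and 570 in hypoxia, among them KRT5 at 398 and 442 FPKM. KRT14 was not analysed here. Of 9 fibroblast and leukocyte markers, 2 had a value, COL3A1 and LYZ, and neither reached a mean of 0.5 FPKM. All 5 hypoxia response genes checked were higher in hypoxia, with log2 changes from 1.73 for PDK1 to 4.77 for CA9. In bulk RNA, fewer cells of a type and less RNA per cell cannot be told apart.

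Transcripts of most subunits were lower in hypoxia. Changes were computed as log2((hypoxia FPKM + 0.1)/(normoxia FPKM + 0.1)) on FPKM summed over the transcripts of a gene, and the added 0.1 understates the change of genes with low FPKM. Of the 30 genes, 27 had a log2 change below 0, against 56.4% of all genes. The median was -0.57 against -0.07 for all genes. The subunits had a higher median FPKM in normoxia than all genes, 18.4 against 9.27. Their median transcript length was shorter, 2113 bases against 3201. Across all genes the log2 change had rank correlations of -0.37 with normoxic FPKM and 0.23 with length. A part of level or length in the difference from all genes was not tested. The summed FPKM of the subunits went from 1136 in normoxia to 803 in hypoxia, which is 70.7% of the normoxic sum, while the sum over all genes past the 0.5 FPKM limit went to 85.5%. A level at least 1.5-fold lower in hypoxia was found for 14 subunit genes (46.7%), against 11.2% of all genes, and a level at least 1.5-fold higher for 0, against 9.95% of all genes. At least 2-fold lower were 5 genes, against 2.62% of all genes. These were POLR1G, POLR1B and POLR1E of Pol I and POLR3G and POLR3K of Pol III. Several genes lay at the 1.5-fold limit, so its count is not sharp. POLR2C (1.501-fold lower) and POLR3B (1.51-fold) were just inside, and POLR1F (1.49-fold), POLR3F (1.48-fold) and POLR2F (1.47-fold) were just outside.

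**Figure D1:**
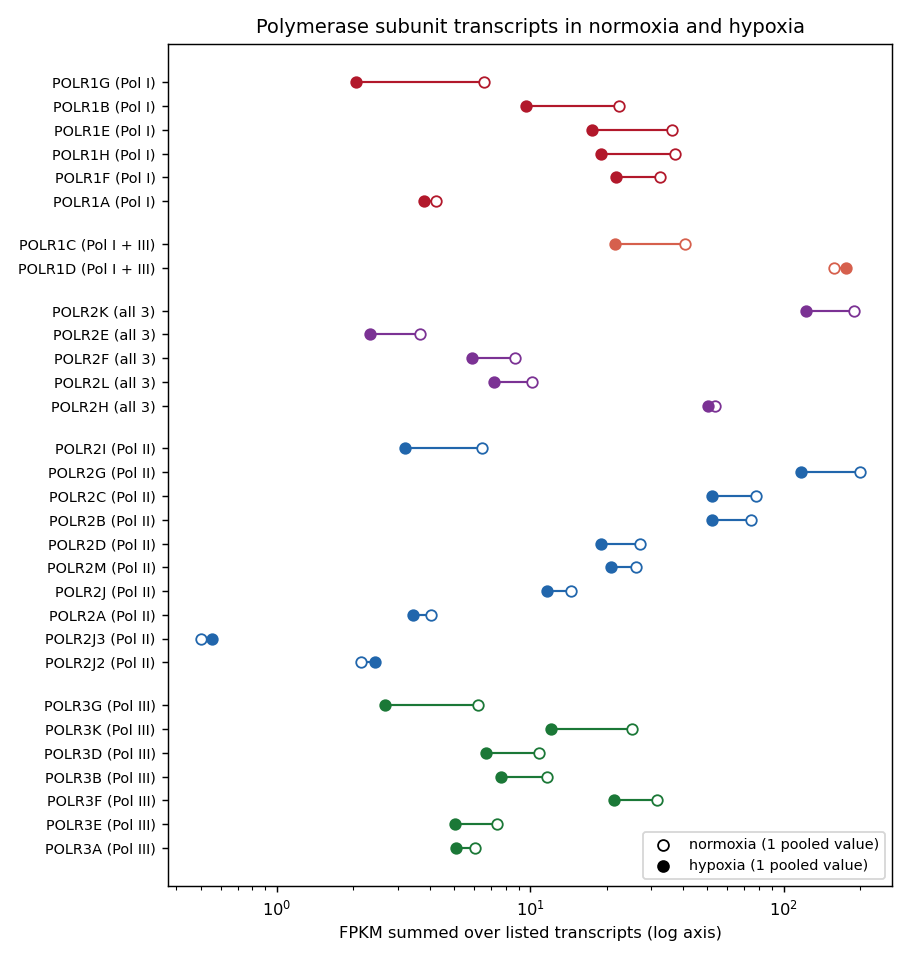
FPKM of each subunit gene on a log axis, summed over its listed transcripts, with open circles for normoxia and filled circles for hypoxia, 1 pooled value each, coloured by the enzyme that the subunit belongs to. The filled circle lies to the left of the open one for all genes but POLR1D, POLR2J2 and POLR2J3, and with equal FPKM sums it would lie to the right for POLR1A and POLR2H too.

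The scale of the comparison affects these counts. The FPKM of all listed transcripts summed to 536005 in normoxia and 458431 in hypoxia. Scaling both columns to equal sums moved every change upwards by up to 0.23 and the median of all genes from -0.07 to 0.15. On that scale 25 of the 30 subunit genes lay below 0, against 36.2% of all genes, and 8 were at least 1.5-fold lower, against 4.94% of all genes. Relative to the median of all genes, 27 of the 30 lay lower both as deposited and after this scaling. Equal sums multiply each column by 1 factor, which shifts nearly all changes alike, so the second count is no separate check. Under quantile normalization 26 of the 30 lay below the median of all genes. POLR1A and POLR2H changed sign with equal sums, and POLR2A and POLR3A came to -0.02 each.

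The 6 subunits found only in Pol I had the lowest median log2 change of the groups, -1.01, and their summed FPKM in hypoxia was 53.0% of that in normoxia. POLR1G, the A34.5 subunit, was lowest of all, with 6.58 FPKM in normoxia and 2.05 in hypoxia (log2 change -1.63). Among all 12106 genes, 0.231% had a lower change. POLR1E, the A49 subunit and partner of POLR1G in a pair that acts in initiation and elongation, went from 36.1 to 17.5 FPKM (-1.05). POLR1B, the second catalytic subunit, went from 22.4 to 9.66 FPKM (-1.20). POLR1H, the A12.2 subunit with a role in cleavage of the nascent RNA, went from 37.4 to 19.0 FPKM (-0.97). All of these levels were about halved or lower, whereas the remaining subunits of Pol I differed less. POLR1F, the stalk subunit that contacts the initiation factor RRN3, went from 32.5 to 21.8 FPKM (-0.57). POLR1A, the largest subunit, had 4.23 FPKM in normoxia against 3.81 in hypoxia (-0.15, or 0.07 with equal sums), and 43.3% of all genes had a lower change. The order of levels differed accordingly: POLR1H was the most abundant of the group in normoxia and POLR1F in hypoxia, and the least abundant was POLR1A in normoxia and POLR1G in hypoxia.

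POLR1C and POLR1D form a heterodimer on which Pol I and Pol III are assembled, and their levels went in opposite directions. POLR1C went from 40.8 to 21.6 FPKM (log2 change -0.92). POLR1D went from 159 to 177 FPKM (0.16) and was the most abundant subunit in hypoxia. The ratio of POLR1D to POLR1C was 3.88 in normoxia and 8.21 in hypoxia. Since POLR1D carried much of the FPKM of the POLR1 symbols, their sum in hypoxia was 80.4% of that in normoxia, although the median log2 change over the 8 POLR1 genes was -0.95.

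**Figure D2:**
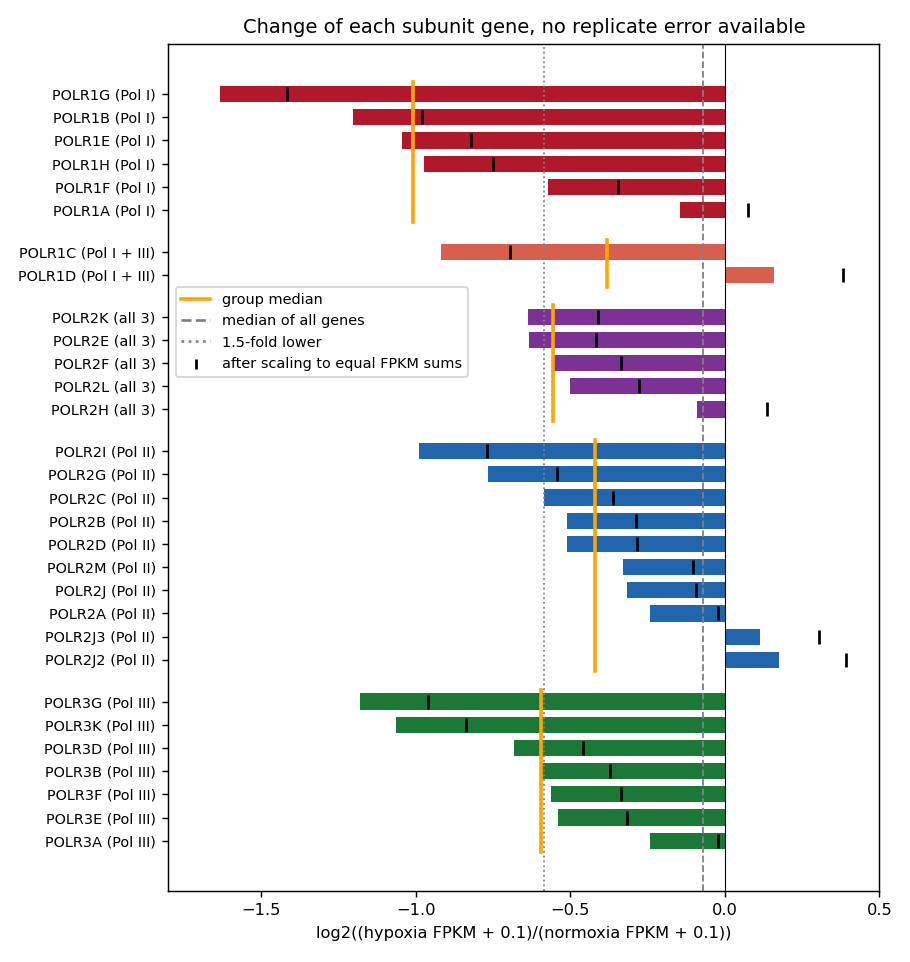
Log2 change of each subunit gene, as bars from 0, with the group median in orange, the median of all genes as a dashed line, and the 1.5-fold limit dotted. Black ticks give the change after scaling to equal FPKM sums, where POLR1A and POLR2H lie above 0; replicate error was not at hand.

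The 5 subunits shared by all of the enzymes were lower in hypoxia, with a median log2 change of -0.56. POLR2K (190 to 122 FPKM) and POLR2E (3.67 to 2.33 FPKM) had nearly the same change, -0.64 and -0.63, at levels 51.7-fold apart in normoxia. POLR2F went from 8.68 to 5.87 FPKM (-0.56) and POLR2L from 10.2 to 7.17 FPKM (-0.50). POLR2H stood apart with 53.4 FPKM in normoxia and 50.2 in hypoxia (-0.09), and its direction turned with quantile normalization (0.06) and with equal sums (0.14).

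Among the 10 genes counted for Pol II alone, the median log2 change was -0.42, and it was -0.51 without POLR2J2 and POLR2J3, near-identical copies of POLR2J. POLR2A, which carries the catalytic centre and the CTD, had 4.07 FPKM in normoxia against 3.43 in hypoxia (log2 change -0.24). It was the least abundant in normoxia of the genes counted for Pol II alone, apart from the POLR2J copies. The shared subunit POLR2E was lower still, at 3.67 FPKM. The most abundant of the genes counted for Pol II alone was POLR2G, a stalk subunit, 48.95-fold above POLR2A. POLR2G went from 199 to 117 FPKM (-0.77), a larger difference than that of its stalk partner POLR2D (27.2 to 19.1 FPKM, -0.51). POLR2I, the RPB9 subunit that acts in start site selection and elongation in yeast, had the lowest change of the group, from 6.44 to 3.19 FPKM (-0.99). POLR2B, the other catalytic subunit, went from 74.3 to 52.1 FPKM (-0.51), and POLR2C, of the assembly platform, from 78.0 to 51.9 FPKM (-0.59). POLR2J, the partner of POLR2C, went from 14.5 to 11.6 FPKM (-0.32). POLR2M, known as Gdown1, which binds Pol II and hinders its interaction with TFIIF, went from 26.2 to 20.8 FPKM (-0.33). The copies POLR2J2 (2.15 and 2.44 FPKM, 0.18) and POLR2J3 (0.503 and 0.552 FPKM, 0.11) were the only Pol II genes listed higher in hypoxia. Reads of POLR2J, POLR2J2 and POLR2J3 can be split between them in counting, so their values are uncertain.

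Each of the 7 Pol III genes described had less FPKM in hypoxia. Their median log2 change was -0.59, with a summed FPKM in hypoxia of 61.3% of that in normoxia. POLR3G, the RPC7 subunit of the trimer that opens the promoter, and known for its high level in stem and tumour cells, went from 6.20 to 2.68 FPKM (-1.18). POLR3F, another member of this trimer, went from 31.6 to 21.4 FPKM (-0.56). POLR3K, needed for termination and reinitiation, went from 25.3 to 12.0 FPKM (-1.06). POLR3D and POLR3E form the pair related to TFIIF. POLR3D went from 10.8 to 6.68 FPKM (-0.68) and POLR3E from 7.36 to 5.03 FPKM (-0.54). The catalytic subunits were listed at 11.7 and 7.69 FPKM for POLR3B (-0.59) and at 6.03 and 5.08 FPKM for POLR3A (-0.24).

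When subunits in matching positions of the enzymes were set side by side, a grouping chosen after their values were seen, the positions differed. The largest subunits POLR1A, POLR2A and POLR3A had log2 changes between -0.24 and -0.15, and their levels were alike too, from 4.07 to 6.03 FPKM in normoxia. At the other end, the homologous zinc ribbon subunits POLR1H, POLR2I and POLR3K had log2 changes of -0.97, -0.99 and -1.06, although POLR2I was several-fold less abundant than the other two. After scaling to equal sums the largest subunits lay between -0.02 and 0.07 and the zinc ribbon subunits between -0.84 and -0.75. For the second largest subunits the enzymes differed, with -1.20 for POLR1B against -0.51 for POLR2B and -0.59 for POLR3B. The larger stalk subunit had a log2 change of -0.57 in Pol I (POLR1F) and -0.77 in Pol II (POLR2G). CRCP, the smaller stalk subunit of Pol III, which the symbol rule does not take in, went from 25.9 to 12.8 FPKM (-1.02), against -0.51 for POLR2D of Pol II. The subunits of TFIIF, GTF2F1 (-0.53) and GTF2F2 (-0.55), were near POLR3D and POLR3E of the related Pol III pair and above POLR1E and POLR1G of the Pol I pair.

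**Figure D3:**
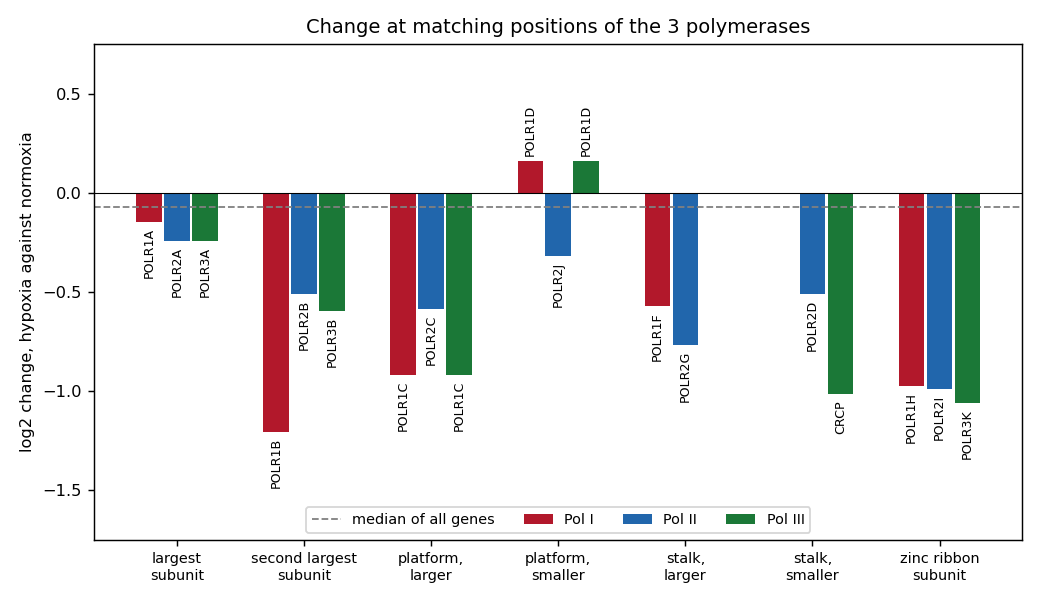
Log2 change, hypoxia against normoxia, of homologous subunits grouped by their position in the enzyme, with Pol I in red, Pol II in blue and Pol III in green and the median of all genes dashed. POLR1C and POLR1D are drawn under both Pol I and Pol III; the largest subunits lie between -0.24 and -0.15 (POLR1A lies above 0 with equal FPKM sums) and all zinc ribbon subunits close to -1.

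Values of single transcripts were also examined. Of the 45 listed subunit transcripts, 40 had a mean of at least 0.5 FPKM, 37 of them lay below 0 (57.4% of all transcripts did) and 19 were at least 1.5-fold lower in hypoxia, against 14.3% of all transcripts. None was at least 1.5-fold higher, against 10.5% of all transcripts. For 21 genes 1 transcript was listed, so that its value is the value of the gene, and 6 genes had at least 2 transcripts past 0.5 FPKM. POLR1H had 4 of them. Its main coding transcript NM_170783 went from 23.7 to 13.4 FPKM (-0.82), and its share of the summed POLR1H FPKM from 63.5% to 70.5%. The noncoding POLR1H transcript NR_103864 went from 4.35 to 1.67 FPKM (-1.33), with a share of 11.7% and then 8.80%. The POLR1D transcripts had opposite signs: NM_015972, with 96.0% of the POLR1D sum in normoxia, went from 152 to 171 FPKM (0.17), and NM_152705 from 6.30 to 5.64 FPKM (-0.16). Both POLR1B transcripts were lower, NM_001282772 from 21.2 to 9.12 FPKM (-1.21) and NM_001282777 from 1.14 to 0.531 FPKM (-0.98). For POLR3B, NM_001160708 carried 72.2% of the sum in normoxia and 75.4% in hypoxia, with log2 changes of -0.53 for it and -0.74 for NM_018082. Of POLR3F, NM_006466 carried 96.0% in normoxia (-0.55), and the noncoding NR_104209 had -0.76. All 4 POLR2H transcripts past the limit lay between -0.23 and -0.07. How fragments are divided between overlapping transcripts is an estimate, and its error was not analysed here.

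**Figure D4:**
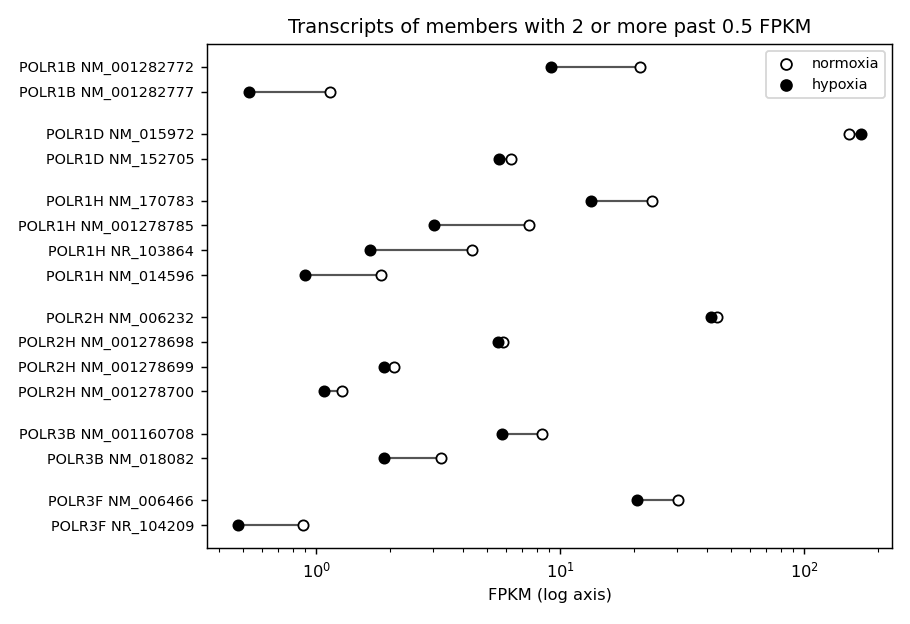
FPKM on a log axis of the transcripts of the 6 subunit genes with at least 2 transcripts past a mean of 0.5 FPKM, open circles for normoxia and filled circles for hypoxia. NM_015972 of POLR1D is the only one with the filled circle to the right.

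Positions and overlapping genes bear on these values. In the GENCODE annotation of GRCh37, the build equivalent to hg19, 14 of the 30 genes overlap another protein-coding gene. The share over all genes is not given here, so this count is not read as a trait of the subunits. The sources used here do not state whether strand was used in counting. POLR1G (chromosome 19, 45909902 to 45913995, plus strand) overlaps ERCC1 on the minus strand. ERCC1, which encodes a DNA repair endonuclease subunit, went from 9.57 to 7.25 FPKM (-0.40), against -1.63 for POLR1G. POLR2I (chromosome 19, 36604611 to 36606115, minus strand) overlaps OVOL3 and TBCB, a tubulin cofactor, and TBCB was listed with -0.45 against -0.99. POLR3G (chromosome 5, 89767565 to 89810374, plus strand) overlaps MBLAC2, with -0.84 against -1.18. In these pairs both genes were lower in hypoxia, and the part of the partner's reads in the values was not tested. DOK4, an adaptor protein gene opposite POLR2C, had 0.71 against -0.59, and IGFBP7, opposite POLR2B, had 0.20 against -0.51. POLR1B (chromosome 2, 113299492 to 113337395), POLR1E (chromosome 9, 37485945 to 37503694) and POLR3K (chromosome 16, 96407 to 103608) overlap no other protein-coding gene there, and each was at least 2-fold lower. The POLR1H entries lie on an alternative haplotype sequence of the major histocompatibility region of chromosome 6, and reads of its other copies were not analysed here.

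The subunit genes differed widely in base composition. The canonical GENCODE transcripts of the 30 genes had a median GC content of 49.89%, from 34.3% for POLR3G to 60.3% for POLR2I, against a median of 47.2% over 11767 genes. Among the shared subunits, POLR2K, with 35.7% GC, had 190 FPKM in normoxia, against 3.67 for POLR2E (59.5% GC) and 10.2 for POLR2L (59.4% GC). POLR2F (57.0% GC) had 8.68 FPKM, while POLR2H had the highest GC content of the shared subunits (60.2%) and their next highest level after POLR2K, 53.4 FPKM. Across the 30 genes the rank correlation of GC content with normoxic FPKM was -0.43, and across all genes -0.34. With the log2 change it was 0.27 over the 30 genes and 0.01 over all genes. Transcript length had a rank correlation with the log2 change of 0.004 over the 30 genes and 0.23 over all genes. The transcripts of the largest subunits had 6304 to 12480 bases and those of the zinc ribbon subunits 443 to 1372. A part of length in the difference between these positions was not tested. The log2 change of the subunits had a rank correlation of -0.19 with their normoxic FPKM, against -0.37 over all genes. These correlations are across genes, which share the same 2 pooled values and are not independent replicates, and the normoxic FPKM enters the change itself.

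Promoter sequences of 22 of the 30 genes (RefSeq, GRCh38.p14, 250 bases before to 50 after the start) were searched on both strands for ACGTG and GCGTG, the core of the hypoxia response element bound by HIF, and for CACGTG, the E-box bound by MYC and related factors, which contains the first of these. The core was present for 17 of the 22 genes (77.3%), against 70.0% of the genes past 0.5 FPKM with a promoter sequence and 52.4% of all genes with one. The median log2 change was -0.54 for the 17 genes with the core and -0.56 for the 5 without it. CACGTG was present for 3 of the 22 genes (13.6%), against 12.4% of the genes past 0.5 FPKM and 8.77% of all. These were POLR1G, POLR3E and POLR3A, whose changes were -1.63, -0.54 and -0.24. No promoter sequence was searched for POLR1E, POLR2G, POLR2I, POLR2J, POLR2J3, POLR2K, POLR3D and POLR3G. A match of letters is a description and not a binding site. The 3 E-box windows are shown because they hold the lowest change and one of the smaller ones, and the windows of POLR1C and POLR1D because these partners went in opposite directions. POLR1C also held GCGTG on the opposite strand, 21 bases before the start, which is not shown. Each window is 30 bases, read along the gene 5′ to 3′, with the motif in capitals.
POLR1G, chr19:45406620-45406649, plus strand, motif 12 bases before the start: cccctttggatcCACGTGgtctgcaacctg
POLR3A, chr10:78029533-78029562, minus strand, motif 35 bases before the start: agaggaagcggaCACGTGggacactctacg
POLR3E, chr16:22297396-22297425, plus strand, motif across the start: cccgctccccccCACGTGtccgccggagtt
POLR1C, chr6:43516966-43516995, plus strand, motif 111 bases before the start: cggaagctggggACGTGgacgggggcgggg
POLR1D, chr13:27621717-27621746, plus strand, motif 163 bases before the start: gcgagtggcctcGCGTGgtcgcccaggtga

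Other genes of the transcription machinery were set beside the subunits, and their counts stand against 56.4% of all genes below 0, 11.2% at least 1.5-fold lower and 9.95% at least 1.5-fold higher. Of 15 assembly factors past 0.5 FPKM, 14 lay below 0, with a median log2 change of -0.40, and 2 (13.3%) were at least 1.5-fold lower, a share near that of all genes. Those were the ATPases RUVBL1 (90.7 to 45.3 FPKM, -1.0) and RUVBL2 (19.8 to 11.03 FPKM, -0.84), which act in the chaperone complex that assembles the polymerases. RPAP1, a Pol II assembly factor, was the one above 0 (1.15 and 1.31 FPKM, 0.17). Of 16 Pol III factors, 14 lay below 0, with a median of -0.38, and 3 (18.8%) were at least 1.5-fold lower. CRCP (-1.02) and SNAPC5 (-0.71), of the complex that activates snRNA promoters, were lowest, and GTF3C1, the largest TFIIIC subunit, was highest (6.37 to 8.45 FPKM, 0.40). CRCP is itself a subunit of Pol III and is among the 3 genes at least 1.5-fold lower, so this list is not free of subunits. Of 31 general Pol II factors, 28 lay below 0, with a median of -0.35, and 6 (19.4%) were at least 1.5-fold lower. The lowest were GTF2H3 (38.2 to 21.3 FPKM, -0.84) and CCNH (31.3 to 17.8 FPKM, -0.82), both of TFIIH. The 10 Pol I factors had a median of -0.30, with 4 (40.0%) at least 1.5-fold lower and 0 at least 1.5-fold higher. MYBBP1A, a nucleolar regulator of Pol I (3.86 to 1.83 FPKM, -1.04), and TAF1A, of the promoter selectivity factor SL1 (19.6 to 10.1 FPKM, -0.95), were lowest, and TAF1C of the same factor was highest at a low level (0.574 and 0.808 FPKM, 0.43).

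The medians of the elongation, Mediator and CTD lists lay closer to that of all genes, -0.07. Of 33 elongation factors, 23 (69.7%) were below 0, with a median of -0.19. Of these factors 2 (6.06%) were at least 1.5-fold lower, against 11.2% of all genes, and 1 was at least 1.5-fold higher, against 9.95% of all genes. The extremes were TCEA2, a TFIIS form (1.28 to 0.425 FPKM, -1.40), and AFF1, of the super elongation complex (1.91 to 4.01 FPKM, 1.03). Of 26 Mediator genes, 20 (76.9%) lay below 0 and 2 (7.69%) were at least 1.5-fold lower, with a median of -0.17 and values from -0.83 for MED22 to 0.56 for MED15. The medians of these lists turned positive with equal FPKM sums, to 0.04 and 0.05, where that of all genes was 0.15. Of 18 CTD kinase and phosphatase genes, 7 (38.9%) lay below 0, against 56.4% of all genes, with a median of 0.05. CTDSP2, a CTD phosphatase (8.25 to 14.2 FPKM, 0.78), and CDK19, a kinase of the Mediator module (3.47 to 5.62 FPKM, 0.68), were at least 1.5-fold higher, and 0 were at least 1.5-fold lower.

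**Figure D5:**
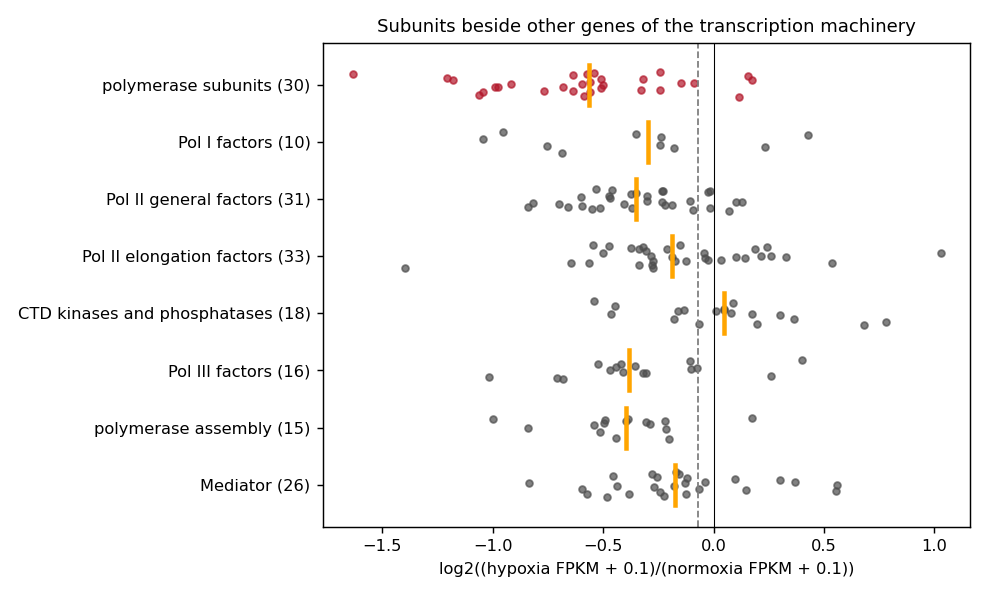
Log2 change of the 30 subunit genes (red) and of the genes past 0.5 FPKM in 7 lists of the transcription machinery (grey), 1 point per gene, with the number of genes in brackets, list medians in orange and the median of all genes dashed. The subunits have the lowest median, -0.57, and the CTD kinases and phosphatases the highest, 0.05.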

How the data were processed

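SQ20B cells in normoxia and in hypoxia, 4 samples each by their source labels, were sequenced as poly(A)-selected stranded libraries. The labels repeat the hypoxia treatment text for the normoxia samples, so groups were taken from the source label. The authors aligned reads with STAR 2.3.0.1 to hg19 with RefSeq annotation and used the Cufflinks suite 2.1.1 with standard parameters. The deposited FPKM values are 1 per transcript and condition. The authors' 4 columns of their own comparison (log2 fold change, test statistic, p-value and q-value) were not used. Since the depth behind each value is unknown, counting intervals and floors were left out.

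Identifiers were paired with symbols through RefSeq (GRCh38.p14, names only), which matched 24293 of 24812 entries (97.9%). Entries were summed per gene, 0.1 was added, and genes with a mean of at least 0.5 FPKM were kept. With 1 value per condition, limma could not be run and no test was made; the 1.5-fold limit describes size. Of the subunit genes, 1 is not reported here and enters no count of members, and all others are named, and of each list at most the 2 lowest and 2 highest genes. GTF2F1, GTF2F2, genes overlapping members and the matching positions were chosen after values were seen. Members and lists were chosen with earlier results of these data known. GC content came from canonical transcripts of GENCODE 44 lifted to GRCh37. The arithmetic was checked on simulated data of 12106 genes without noise, where all 200 genes with set folds were recovered. The folds set were above the 1.5-fold limit, so this outcome says nothing about the error of the pooled values. Alternatives covered pseudocount, FPKM limit, scaling, grouping, transcript choice and, added later, the fold limit. Python 3.11.15, numpy 2.4.6, pandas 2.3.3, scipy 1.17.1 and matplotlib 3.10.9 were used.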

Additional observations from a re-analysis of the deposited data

How the results depend on the processing

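No paired analysis was possible because each condition had 1 pooled value, and leaving out replicates was not run for the same reason. Without a spread, a value was taken as the same where it moved by less than 0.1 on the log2 scale, and a count where it stayed within 1.5 times. The group and list medians and the counts were the same in this sense with 0.01 or 1 added, without the FPKM limit or with a mean of at least 1, with median centring, by the highest transcript only, by symbol prefix and without POLR2J2 and POLR2J3. Under quantile normalization the median log2 change was -0.90 for Pol I, -0.18 for the subunits shared by Pol I and Pol III, -0.43 for those shared by all, -0.26 for Pol II and -0.43 for all subunits, and -0.22 for the general Pol II factors, -0.088 for the elongation factors, -0.21 for the Pol III factors and -0.24 for the assembly factors. With equal FPKM sums these medians were -0.79, -0.16, -0.33, -0.19 and -0.34, with -0.37 for Pol III, and -0.12, 0.037, -0.16 and -0.17, with -0.072 for the Pol I factors, 0.26 for the CTD kinases and phosphatases and 0.050 for Mediator. Subunits at least 1.5-fold lower then numbered 8 in place of 14. Within the tolerance set for counts, they numbered 10 with median centring, against 8.76% of all genes. Under quantile normalization they numbered 10 as well, against 8.44% of all genes. With 1 added they numbered 11, and by the highest transcript only 13. A limit of 2-fold, chosen after seeing the data, left 5. Of 239 values of single subunits under the alternatives, 236 kept their direction. The others were POLR2H (0.061 under quantile normalization and 0.14 with equal sums) and POLR1A (0.073 with equal sums). The cause of the difference between the FPKM sums was not tested.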
